A study of Homo sapiens with 9 samples.

Results

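Accessible regions at the ends of protein-coding genes that were called in every condition of the series numbered 13377, of 57097 regions called in all conditions and 97801 regions in all. They came from ATAC-seq, in which a transposase cuts accessible DNA and tags it for sequencing. The cells were T47D, an established line from a human breast cancer of luminal type. The groups held 3 samples each: cells with a hairpin RNA against ZHX2 kept in hypoxia (H-shZHX2), cells with a control hairpin in hypoxia (H-shCtrl) and cells with the control hairpin in normoxia (N-shCtrl). All cells had been infected with lentivirus and selected with a drug, per the labels' protocols, and the oxygen level and the length of hypoxia are not given in the sources used here. Each group had 1 deposited list of called regions, so no value below has a replicate error, no p-value is given, and a difference between 2 lists compares those lists.

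The lists were merged wherever regions shared at least 1 bp. A merged region was kept when it had a call in each list and came within 1 kb of either boundary of a protein-coding gene, as placed by the RefSeq gene table of GRCh38. The regions were thus chosen by their calls in the lists and their position, and that they are open in all 3 lists and lie at gene ends is not a result. Of the 15126 merged regions at gene ends, 88.4% were called in all 3 lists, whereas 52.9% of the 82675 regions elsewhere were, and 58.4% of all regions. The 13377 regions served 14030 genes, which is 70.0% of the 20037 protein-coding genes on chromosomes 1 to 22, X and Y. Of the 6007 genes without one, 956 had a gene-end call in at least 1 list and 5051 had none.

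Transcription of a gene starts at its promoter, where general factors and RNA polymerase II assemble on DNA kept free of nucleosomes. Most promoters of widely used genes in mammals lie in CpG islands, stretches rich in the dinucleotide CG that stay unmethylated and open in most cell types, while promoters of genes used in few tissues are often poor in CG and open only where the gene is used. In hypoxia the factors HIF1A and EPAS1 are stabilised, pair with ARNT and bind sites with a core of ACGTG. ZHX2 is a zinc finger and homeobox protein that binds DNA.

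The promoters of 8 genes are shown because they carry the sequence features in which open and unopened gene starts, and classes of genes among them, differed. They were chosen after the values were seen. Each runs from 140 bases before the annotated start of transcription to 10 bases after it, 5′ to 3′ along the gene's strand, from RefSeq's GRCh38.p14. Capitals mark matches on either strand to any of 14 motifs: TATAAA (bound by TBP, called a TATA box), CCAAT (bound by NF-Y), GGGCGG (GC box), CCGGAAG (ETS factors), GCATGCGC (NRF1), TGACGTCA (CREB and ATF factors), CACGTG (E-box), ACGTG (hypoxia response core, which lies within the E-box), AAGATGGC (YY1), CTCTTTCC (polypyrimidine initiator), TGACTCA (AP-1), CTCGCGAG (bound by ZBTB33), AGATAAG (bound by GATA factors) and TGTTTAC (forkhead factors). In the first 6, the CG dinucleotides number at least 0.807 of those expected from base composition, and in NEUROD4 and CA9 0.312 and 0.255. All but CA9 had the start inside a region called in all 3 lists.
PGK1: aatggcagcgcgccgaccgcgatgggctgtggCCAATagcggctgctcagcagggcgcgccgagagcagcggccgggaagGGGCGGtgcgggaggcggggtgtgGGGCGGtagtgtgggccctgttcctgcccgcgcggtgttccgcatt
MRPL52: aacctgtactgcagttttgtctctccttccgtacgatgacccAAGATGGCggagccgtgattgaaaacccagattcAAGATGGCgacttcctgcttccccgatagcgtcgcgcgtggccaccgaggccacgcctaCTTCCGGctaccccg
ZNF585A: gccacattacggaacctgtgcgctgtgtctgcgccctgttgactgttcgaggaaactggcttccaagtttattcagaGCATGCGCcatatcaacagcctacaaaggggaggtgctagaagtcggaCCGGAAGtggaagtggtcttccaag
MCM3: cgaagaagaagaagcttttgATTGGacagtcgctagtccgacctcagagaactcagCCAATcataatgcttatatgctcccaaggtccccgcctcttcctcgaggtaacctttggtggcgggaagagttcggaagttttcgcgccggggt
RPS19: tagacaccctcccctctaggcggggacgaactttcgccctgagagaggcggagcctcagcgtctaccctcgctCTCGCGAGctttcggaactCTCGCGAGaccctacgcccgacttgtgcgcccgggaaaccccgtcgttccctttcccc
H2BC5: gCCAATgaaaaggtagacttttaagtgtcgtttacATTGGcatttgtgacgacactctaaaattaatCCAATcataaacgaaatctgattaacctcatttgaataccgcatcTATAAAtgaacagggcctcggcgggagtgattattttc
NEUROD4: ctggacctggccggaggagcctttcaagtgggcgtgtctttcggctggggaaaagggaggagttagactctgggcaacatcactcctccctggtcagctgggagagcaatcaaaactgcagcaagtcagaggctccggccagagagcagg
CA9: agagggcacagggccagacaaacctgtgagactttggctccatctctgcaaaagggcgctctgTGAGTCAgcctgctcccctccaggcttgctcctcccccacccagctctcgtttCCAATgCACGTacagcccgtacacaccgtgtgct

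The promoter of PGK1, a glycolytic enzyme and HIF target, lies at chrX:78104108-78104257 on the plus strand and holds a CCAAT box and 2 GC boxes. MRPL52, a protein of the mitochondrial ribosome, at chr14:22829747-22829896 on the plus strand, has 2 YY1 matches and an ETS match. ZNF585A, a zinc finger protein, at chr19:37172686-37172835 on the minus strand, has an ETS and an NRF1 match. MCM3, a subunit of the replicative helicase, at chr6:52284733-52284882 on the minus strand, has 2 CCAAT boxes. RPS19, a protein of the small cytosolic ribosomal subunit, at chr19:41860115-41860264 on the plus strand, has 2 copies of CTCGCGAG. H2BC5, a replication-dependent histone gene, at chr6:26157981-26158130 on the plus strand, has 3 CCAAT boxes upstream of a TATA box. NEUROD4, a neuronal transcription factor, at chr12:55019834-55019983 on the plus strand, has no match to any of the 14. CA9, a carbonic anhydrase induced by HIF, at chr9:35673788-35673937 on the plus strand, has an AP-1 match, a CCAAT box and a hypoxia response core. A match is a string of letters and not a measured binding site.

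Gene starts inside the regions were CG-rich, and gene starts in no region of any list were mostly not. RefSeq promoters of 300 bases, 250 before and 50 after the start, were matched to 15843 of the 20037 genes. The start lay in a region called in all 3 lists for 9751 of them and in no region for 5239. Median GC content was 66.0% in the 9751, against 52.7% in the 5239 and 62.7% in all. The number of CG dinucleotides relative to that expected from base composition had a median of 0.855 in the 9751, against 0.293 in the 5239 and 0.763 in all. With under 0.2 of the expected number, 6.83% of promoters had the start in a region called in all 3 lists. The share was 16.9% at 0.2 to 0.4, 43.2% at 0.4 to 0.6, 75.5% at 0.6 to 0.8, 86.0% at 0.8 to 1 and 88.9% above that. NEUROD4, at 0.312, is thus one of the 338 of 2005 promoters in the second of these bins that were open, and CA9, at 0.255, is one of those that were not.

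**Figure D1:**
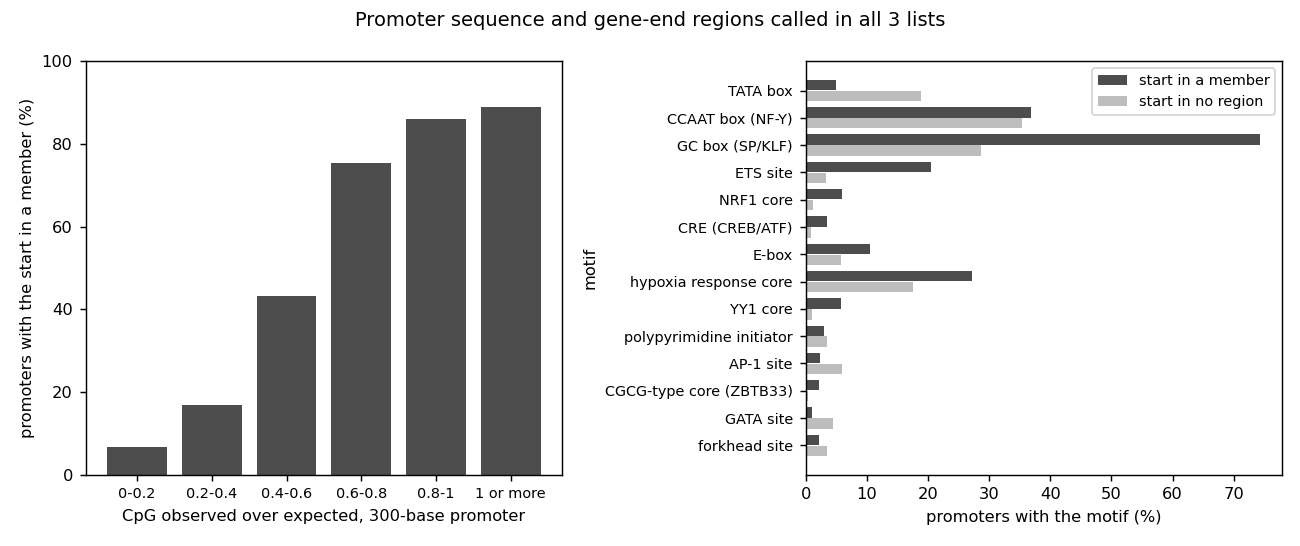
Left, share of 300-base promoters whose start lay in a gene-end region called in all 3 lists (%), by the number of CG dinucleotides over that expected. Right, share of promoters with each of 14 motifs (%) for starts in such a region (dark) and starts in no region of any list (light). The share on the left runs from 6.83% to 88.9%, and TATA boxes, AP-1, GATA, forkhead and polypyrimidine matches are the motifs whose light bar is the longer one.

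Most of the 14 motifs differed in frequency between open starts and starts in no region, in both directions. The GC box was in 74.2% of promoters with the start in a region called in all 3 lists, in 28.7% of those in no region and in 58.5% of all 15843. ETS matches were in 20.6% of the open starts, against 3.28% of starts in no region and 14.2% of all. YY1 matches were in 5.72%, against 0.973% and 3.91%, and NRF1 matches in 6.01%, against 1.13% and 4.26%. TATA boxes went the other way, in 4.89% of the open starts, against 18.8% of starts in no region and 9.63% of all. AP-1 matches were in 2.43%, against 6.01% and 3.66%, and GATA matches in 0.985%, against 4.43% and 2.13%. The CCAAT box hardly separated them, at 36.9%, 35.4% and 36.4%. These shares follow base composition as well as the motif, which was not separated.

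Width set the regions apart from other shared regions. In the H-shZHX2, H-shCtrl and N-shCtrl lists the regions had a median width of 1069, 1078 and 1152 bp. The 43720 regions called in all 3 lists away from gene ends had 441 bp in H-shZHX2, 485 bp in H-shCtrl and 571 bp in N-shCtrl. After merging, the median was 1190 bp, with 90% of regions between 473 and 2227 bp, whereas regions elsewhere had a median of 610 bp. Nearly all regions were a single interval in each list, with 202, 123 and 63 of the 13377 split into more than 1 in H-shZHX2, H-shCtrl and N-shCtrl.

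Column 7 of the lists, which is the authors' fold enrichment of reads over the local background, was also higher at gene ends, by a smaller margin. Its median was 5.97, 5.77 and 5.66 in H-shZHX2, H-shCtrl and N-shCtrl, and 4.75, 4.76 and 5.02 in the regions elsewhere. Ranked among the 57097 shared regions, from 0 for the lowest to 100 for the highest, the median gene-end region stood at 64.7 in H-shZHX2, 63.5 in H-shCtrl and 59.0 in N-shCtrl. By the authors' −log10 p it stood at 82.3 in H-shZHX2, 81.1 in H-shCtrl and 80.7 in N-shCtrl. Ranked only among regions of similar width, it stood at 58.4 in H-shZHX2, 60.8 in H-shCtrl and 62.0 in N-shCtrl, an order of the lists that is the reverse of that by column 7 alone.

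**Figure D2:**
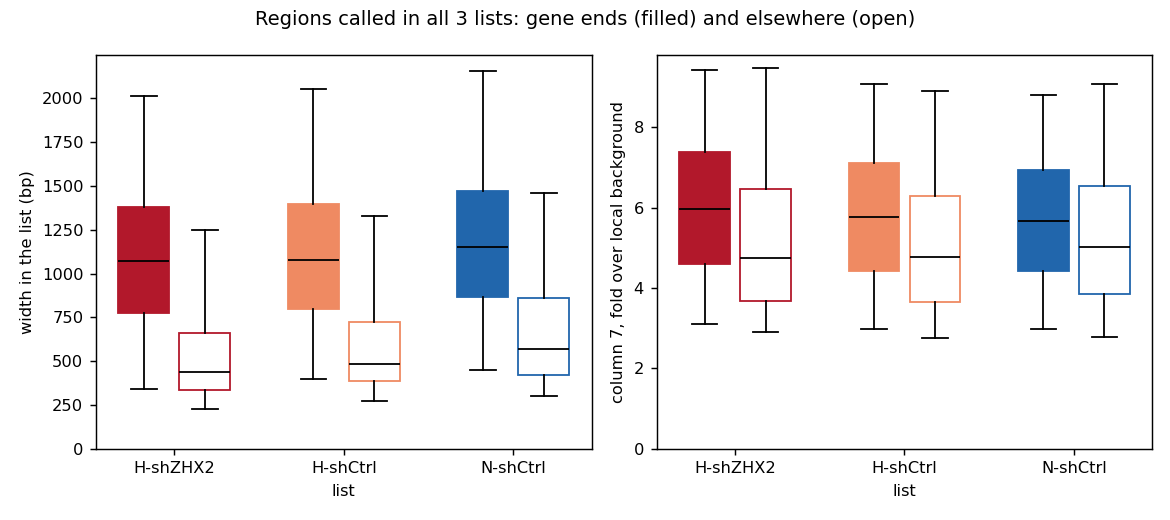
Width (left, bp) and column 7 (right, fold over local background) in each list for gene-end regions called in all 3 lists (filled) and regions called in all 3 lists elsewhere (open). Boxes span the quartiles with the median as a line, and whiskers run from the 5th to the 95th percentile. The width boxes lie apart in every list, with medians of 1069 bp in H-shZHX2, 1078 bp in H-shCtrl and 1152 bp in N-shCtrl for the filled boxes, while the column 7 boxes overlap.

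The widest gene-end regions were not the ones with the highest column 7. In H-shCtrl its median was 3.41 in regions of up to 400 bp, climbed to 7.60 at 800 to 1000 bp and was 3.78 above 2000 bp. The same hump was present in H-shZHX2, at 3.53, 7.96 and 3.95, and in N-shCtrl, at 3.33, 7.37 and 3.75. Away from gene ends the value in H-shCtrl was highest, at 5.68, in regions of 400 to 600 bp. Column 7 is an average over an interval, so a broad region with a sharp summit can have a low value. Whether that shaped the hump was not tested. Across the 13377 regions, Spearman's rank correlation between width and column 7 was −0.16, −0.22 and −0.29 in H-shZHX2, H-shCtrl and N-shCtrl. In shared regions away from gene ends it was 0.44, 0.29 and 0.15 in these lists. These correlations are a description in which both measures come from the same intervals.

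**Figure D3:**
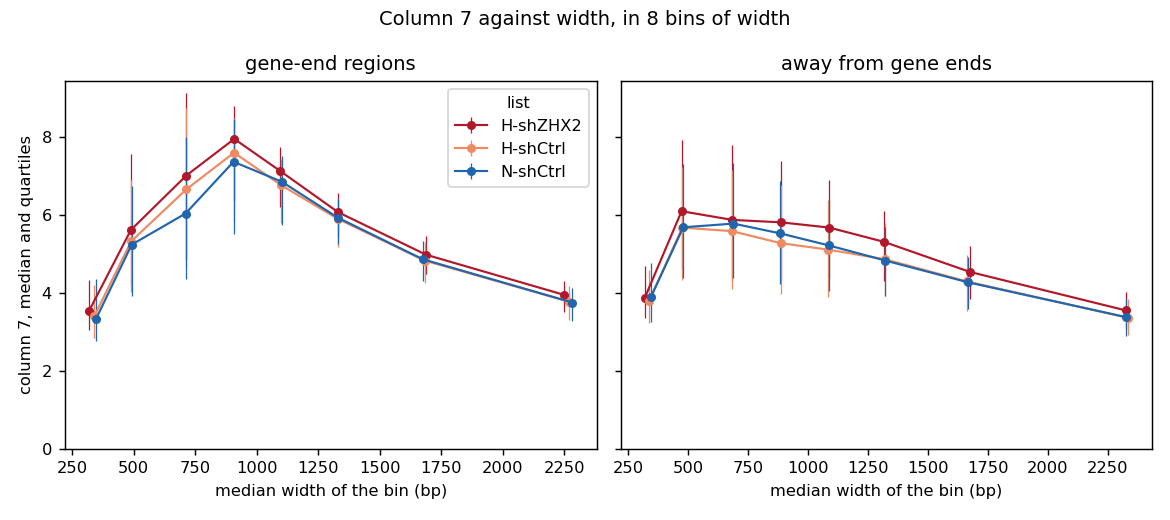
Median column 7 (fold over local background, bars for quartiles) against the median width (bp) of 8 bins of width, for gene-end regions called in all 3 lists (left) and regions called in all 3 lists elsewhere (right), 1 line per list. On the left each line peaks in the bin of 800 to 1000 bp, at 7.96 in H-shZHX2, 7.60 in H-shCtrl and 7.37 in N-shCtrl.

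The widest region after merging, of 4910 bp, lay over the start of ARHGDIA, which restrains small GTPases of the actin cytoskeleton, at chr17:81867285-81872194. It held 2 intervals in each list, with added widths of 4020 bp in H-shZHX2, 3574 bp in H-shCtrl and 3270 bp in N-shCtrl. Its column 7 was 2.26 in H-shZHX2, 2.33 in H-shCtrl and 2.21 in N-shCtrl, near the bottom of the ranking at a mean of 1.14. LAMA5, a laminin chain of basement membranes, followed at 4271 bp, then BRD2, a reader of acetylated histones, at 4247 bp, ARID1B, a subunit of the BAF chromatin remodeller, at 4214 bp, and ZFP36L1, a protein that promotes decay of AU-rich mRNAs, at 4043 bp. BRD2 and ARID1B were single intervals in every list, while LAMA5 was split in H-shZHX2 and ZFP36L1 in all 3 lists. Of these 5 widest regions, the mean rank by column 7 was highest for ZFP36L1, at 20.2, while by −log10 p it was 85.0 and that of BRD2 was 82.8.

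The highest mean rank belonged to PGK1, whose start lay in a region of 672 bp at chrX:78103735-78104406. Its column 7 was 14.5 in H-shZHX2, 14.3 in H-shCtrl and 14.4 in N-shCtrl, so by that measure the lists hardly differed. Its −log10 p was 7907 in H-shZHX2, 5051 in H-shCtrl and 4962 in N-shCtrl. In each list that was the highest of all regions touching a start, whose 95th percentile was 767, 748 and 746. Why PGK1 stood so far out was not tested. NEUROD4, whose CG-poor promoter is printed above, came next by column 7, with 13.9 in H-shZHX2, 13.1 in H-shCtrl and 14.0 in N-shCtrl. NSG2, a vesicle protein of neurons, had 13.7 in H-shZHX2, 12.5 in H-shCtrl and 13.6 in N-shCtrl. ZSWIM1, a zinc finger protein, had 13.3 in H-shZHX2, 12.5 in H-shCtrl and 12.5 in N-shCtrl. CALB1, the calcium-binding protein calbindin, had 13.1 in H-shZHX2, 12.2 in H-shCtrl and 13.2 in N-shCtrl. Of these 5 regions the widest had a merged width of 726 bp, so all were narrower than the median. The mean rank by column 7 was lowest at BCL9L, a coactivator of beta-catenin, with a column 7 of 1.63 in H-shZHX2, 1.59 in H-shCtrl and 1.81 in N-shCtrl. Next were RHOU and TMUB1. RHOU, a small GTPase, had 1.73 in H-shZHX2, 1.78 in H-shCtrl and 1.65 in N-shCtrl. TMUB1, a membrane protein with a ubiquitin-like domain, had 1.66 in H-shZHX2, 1.78 in H-shCtrl and 1.78 in N-shCtrl.

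Starts of genes accounted for most of the regions and for the wide ones. A gene's strand, and so which end is its start, was known for 15843 genes. By these, 9715 regions (72.6%) touched a start, 1108 (8.28%) touched ends only, and 2554 (19.1%) touched only genes of unknown strand. Regions at starts had a median merged width of 1236 bp and a median rank by column 7 of 65.3, against 658 bp and 43.7 at ends only. Of the 11351 genes of known strand with a region, 82.0% had it at the start only, 4.11% at the end only and 13.9% at both. A region at the end of one gene can also hold a start within that gene or a regulatory element, which the gene table does not show.

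Measured from the gene's outer boundary, regions over starts mostly reached further into the gene than upstream of it. Where 1 region covered 1 known start, in 7478 cases, it reached a median of 427, 432 and 462 bp upstream and 623, 620 and 658 bp downstream in H-shZHX2, H-shCtrl and N-shCtrl. The downstream arm was the longer one in 65.9%, 65.8% and 66.8% of them. The start here is the gene's boundary, which equals the start of its RefSeq promoter in 83.8% of genes. Any start further inside a gene lies downstream of that boundary, and its part in the longer arm was not tested. Regions with starts on both strands, which serve divergent gene pairs, numbered 1078 and had a median merged width of 1361 bp and a rank among regions of similar width of 73.4. The 8536 regions with a single start of known strand had 1214 bp and 63.3.

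Most regions served a single gene. One gene was touched by 11052 regions, 2 genes by 2207, and 3 or more by 118. The largest group was 22 protocadherin genes of the gamma cluster, neuronal adhesion molecules that share their last exons and so share 1 region at chr5:141512240-141512745. Its column 7 was 4.37 in H-shZHX2, 5.13 in H-shCtrl and 5.48 in N-shCtrl. Conversely 40 genes had 3 separate regions, among them JUNB, a subunit of AP-1, KLF10, a zinc finger repressor, PKM, the glycolytic pyruvate kinase, and IL6ST, the shared receptor of the interleukin 6 family.

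The 1 kb window and the call in every list are thresholds, and the regions near them were the small ones. The 465 regions at 751 to 1000 bp from a gene end had a median merged width of 682 bp and a median rank of 41.4. The 474 shared regions at 1001 to 1250 bp, just outside, had 659 bp and 36.5. The 11235 regions that covered a gene end had 1243 bp and 64.8. At the other threshold, the region with the weakest call was at MAT2A, a methionine adenosyltransferase, with a −log10 p of 10.2 in H-shZHX2, 14.2 in H-shCtrl and 29.5 in N-shCtrl. The strongest gene-end region that missed a list was at CCDC116, with no call in H-shZHX2, 112 in H-shCtrl and 125 in N-shCtrl. Of the 15126 merged gene-end regions, 743 were called in H-shCtrl and N-shCtrl only and 673 in N-shCtrl only. Their median merged widths were 421 and 311 bp. Of all 97801 merged regions, 14973 and 16354 had these patterns of calls, and 4.96% and 4.12% of those were at gene ends. Of regions called in all 3 lists, 23.4% were.

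Genes of the machinery that every cell uses nearly all had a region, against 70.0% of all protein-coding genes. All 33 Mediator genes, whose products link transcription factors to RNA polymerase II, and all 12 polymerase II subunit genes had one. It was 64 of 65 for the spliceosome, 75 of 77 for mitochondrial ribosomal proteins, 35 of 36 for aminoacyl-tRNA synthetases, 33 of 34 for DNA replication and mitosis, 83 of 88 for cytosolic ribosomal proteins, 52 of 56 for translation initiation factors, 36 of 39 for the proteasome and 74 of 81 for the respiratory chain and ATP synthase. Several genes without one are forms used in a few tissues or copies of another gene. Examples are PSMA8, a proteasome subunit of the testis, COX6A2, a cytochrome oxidase subunit of muscle, and RPL10L, a retrocopy. COX6A2 did have a gene-end call in H-shCtrl and N-shCtrl, but none in H-shZHX2. RPS4Y1, RPS4Y2 and EIF1AY lie on chromosome Y, where 1 of 63 genes had a region. Others, such as FARS2, ORC1, MRPL24 and PSMA6, are of none of these kinds. Regions called in all 3 lists lay over each of these genes, 7 in FARS2 and 1 in each of the others. The nearest such region lay 1022 bp from an end of PSMA6 and 1054 bp from one of MRPL24, just outside the window.

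**Figure D4:**
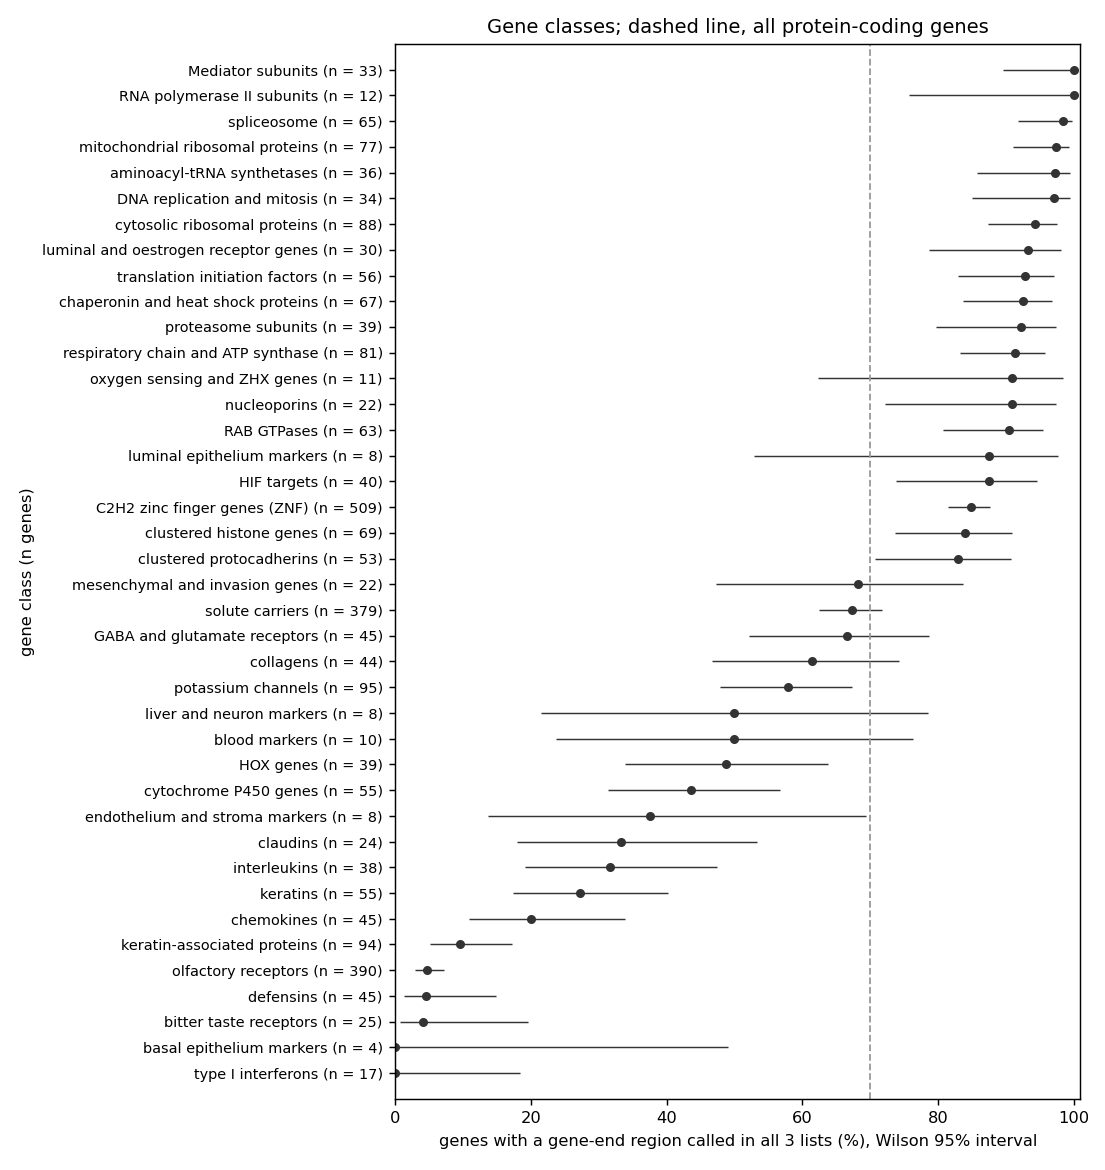
Share of the genes of each of 40 classes with a gene-end region called in all 3 lists (%), with the Wilson 95% interval of counting error and the number of genes in the class. The dashed line is the share of all protein-coding genes, 70.0%. Machinery classes lie at 90% or more, and olfactory receptors, defensins and bitter taste receptors lie under 5%.

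Among these classes the rank by column 7 was highest for DNA replication and mitosis genes, with a median of 81.8 over 36 regions, beside 78.9 for aminoacyl-tRNA synthetases, 77.0 for Mediator, 76.4 for mitochondrial ribosomal proteins and 69.5 for cytosolic ones. ORC3, a subunit of the origin recognition complex, stood highest of the replication genes, with a column 7 of 10.9 in H-shZHX2, 10.7 in H-shCtrl and 9.46 in N-shCtrl. RRM2, which makes deoxyribonucleotides, stood lowest, with 4.0 in H-shZHX2, 3.89 in H-shCtrl and 3.34 in N-shCtrl. TARS2, a mitochondrial threonyl-tRNA synthetase, had 12.3 in H-shZHX2, 11.5 in H-shCtrl and 11 in N-shCtrl. ATP5F1B, a catalytic subunit of ATP synthase, had 11.9 in H-shZHX2, 11 in H-shCtrl and 10.5 in N-shCtrl. RPS4X, a ribosomal protein of the X chromosome, had 10.2 in H-shZHX2, 9.87 in H-shCtrl and 9.67 in N-shCtrl. RNA polymerase II subunit genes had wider regions, with a median of 1438 bp, and a rank of 56.3.

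The promoters of these classes differed in their motifs. CCAAT was in 25 of the 30 promoters of replication and mitosis genes whose start lay in a region (83.3%, against 36.9% of all open starts), as in MCM3 above. ETS matches were in 29 of 68 mitochondrial ribosomal protein promoters (42.6%) and YY1 matches in 20 of them (29.4%), against 20.6% and 5.72% of all open starts, and MRPL52 has both. NRF1 matches were in 12 of 60 promoters of the respiratory chain and ATP synthase, against 6.01% of all open starts. Cytosolic ribosomal protein promoters had the polypyrimidine initiator in 9 of 65 (13.8%, against 2.93%) and CTCGCGAG in 6 (9.23%, against 2.23%), as RPS19 has.

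Zinc finger and histone genes differed in column 7 and in width. Of 509 ZNF genes, which encode C2H2 zinc finger proteins that mostly repress transposons and genes, 432 (84.9%) had a region. Their 442 regions had a median merged width of 1121 bp, against 1190 bp over all gene-end regions, and a median rank by column 7 of 78.4. ZNF585A stood highest, with a column 7 of 11.9 in H-shZHX2, 12.3 in H-shCtrl and 12 in N-shCtrl, and ETS matches were in 142 of 348 promoters of the family (40.8%). Of 69 clustered histone genes, 58 (84.1%) had a region, and because histone genes lie close together these were 38 regions. Their median merged width was 1700 bp and their median rank 35.4 by column 7 and 83.0 by −log10 p. Their promoters had a median GC content of 42.5%, a TATA box in 34 of 52 (65.4%) and CCAAT in 43 (82.7%), as in H2BC5. H4C3 stood highest of them, with 9.13, 8.40 and 8.17 in H-shZHX2, H-shCtrl and N-shCtrl. Histone genes are near-identical copies, so reads may be split between them, and how the authors placed such reads is not given in the sources used here.

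Several families used in other tissues had few regions, against 70.0% of all protein-coding genes. It was 18 of 390 olfactory receptors (4.62%), 2 of 45 defensins, 1 of 25 bitter taste receptors, 9 of 94 keratin-associated proteins of hair, 9 of 45 chemokines, 12 of 38 interleukins and none of 17 type I interferons (a share of at most 18.4% by the Wilson interval). With a window of 2 kb in place of 1 kb, 16 chemokines and 1 type I interferon had a region, and with 0.5 kb 1 defensin. The 18 olfactory receptor genes had regions of a median of 587 bp. OR7E24 stood highest of these, with a column 7 of 9.93 in H-shZHX2, 9.16 in H-shCtrl and 11.7 in N-shCtrl. The bitter taste receptor was TAS2R40, called at its end, with 4.57 in H-shZHX2, 4.55 in H-shCtrl and 6.18 in N-shCtrl. Families of neurons differed: 55 of 95 potassium channel genes (57.9%) and 30 of 45 genes of GABA and glutamate receptors (66.7%) had a region, the second share close to that of all genes. Of 53 clustered protocadherins, 44 (83.0%) had one, where 22 of the 44 share the 1 region given above. In developmental and epithelial families it was 19 of 39 HOX genes, 15 of 55 keratins and 8 of 24 claudins, the tight junction proteins. HOXB13 stood highest among HOX genes, with 9.44 in H-shZHX2, 8.19 in H-shCtrl and 6.49 in N-shCtrl.

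Genes of the luminal breast lineage had wide regions of low column 7. Of 30 luminal and oestrogen receptor genes, 28 had a region (93.3%, against 70.0% over all protein-coding genes), with a median merged width of 1486 bp, a median rank by column 7 of 34.7 and one by −log10 p of 76.8. FOXA1, a pioneer factor of the lineage, shared a region of 2342 bp with its neighbour TTC6, and its column 7 was 2.34 in H-shZHX2, 2.32 in H-shCtrl and 2.26 in N-shCtrl. GATA3, another lineage factor, had 2.52 in H-shZHX2, 2.56 in H-shCtrl and 2.98 in N-shCtrl at its start. KRT8 and KRT18, the paired keratins of simple epithelia, shared a region between their starts with 3.83 in H-shZHX2, 3.97 in H-shCtrl and 3.99 in N-shCtrl. EPCAM, an epithelial adhesion molecule, stood highest, with 9.98 in H-shZHX2, 8.12 in H-shCtrl and 8.79 in N-shCtrl. PGR, the progesterone receptor, had 3.47 in H-shZHX2, 3.38 in H-shCtrl and 3.81 in N-shCtrl. GREB1, an oestrogen receptor target, had 4.74 in H-shZHX2, 4.42 in H-shCtrl and 4.06 in N-shCtrl. MYC, the growth regulator, had 2.57 in H-shZHX2, 2.79 in H-shCtrl and 2.60 in N-shCtrl over a region of 3609 bp.

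The other genes of that list, ESR1 and TFF1, had no region. ESR1, the oestrogen receptor, had none at its annotated ends in any list, although 9 regions called in all 3 lists lay over the gene. The nearest region called in all 3 lists, over the gene or beside it, lay 1371 bp from an end. At TFF1, an oestrogen-induced gene for a secreted peptide, only the N-shCtrl list had a gene-end call. Checked against markers of the labelled cell type, 7 of 8 luminal epithelial markers had a region, with ESR1 the exception, and none of 4 basal markers, KRT5, KRT14, KRT17 and TP63, did, although TP63 had a gene-end call in H-shCtrl and N-shCtrl. The Wilson interval of the luminal share, 52.9% to 97.8%, includes the 70.0% of all protein-coding genes. Some markers of other cell types had a region too: it was 5 of 10 for blood, 3 of 8 for endothelium and stroma and 4 of 8 for liver and neuron. A region at either end of a gene counts here, so these shares do not show open promoters. A known start was touched by 1 of 5 blood regions, 2 of 4 of endothelium and stroma and 3 of 4 of liver and neuron. Among luminal markers it was 3 of 11 regions. The remaining regions touched an end or a gene of unknown strand. Mesenchymal and invasion genes had a region in 15 of 22 (68.2%), close to the share of all genes. With a window of 0.5 kb blood had 3, and endothelium and stroma had 6 with 2 kb and 1 at a −log10 q of 20 or more. SPI1, a transcription factor of blood cells, had 9.07 in H-shZHX2, 8.08 in H-shCtrl and 8.30 in N-shCtrl. SYP, a synaptic vesicle protein, had 11.3 in H-shZHX2, 10.3 in H-shCtrl and 10.4 in N-shCtrl. ALB, PECAM1 and VWF had no gene-end call in any list, and CD3D had one in H-shCtrl and N-shCtrl only.

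Of 40 HIF target genes, 35 had a region (87.5%, against 70.0% over all protein-coding genes), and being called in normoxia as in hypoxia is part of how regions were chosen. Of the list, CA9, HK1, KDM3A, PFKFB4 and SLC2A3 had none at their ends. Elsewhere over the gene, 8 regions called in all 3 lists lay in HK1, 2 in PFKFB4, 1 in KDM3A and 1 in SLC2A3, and none in CA9. The hypoxia response core was in 15 of the 26 promoters of the list whose start lay in a region (57.7%, against 27.1% of all open starts). It is also in the CA9 promoter printed above, whose gene had no gene-end call in any list and whose nearest region called in all 3 lists lay 8389 bp away. VEGFA, the angiogenic growth factor, had a column 7 of 4.70 in H-shZHX2, 2.98 in H-shCtrl and 2.84 in N-shCtrl. Its width was 1705 bp in H-shZHX2, 2561 bp in H-shCtrl and 2693 bp in N-shCtrl, so the value was highest where the interval was shortest. ADM, the vasodilator adrenomedullin, stood lowest of the list, with 2.91 in H-shZHX2, 2.59 in H-shCtrl and 2.58 in N-shCtrl.

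Of 11 oxygen sensing and ZHX genes, 10 had a region, and HIF3A did not. The Wilson interval of that share, 62.3% to 98.4%, includes the 70.0% of all genes. HIF1A had a column 7 of 6.53 in H-shZHX2, 6.40 in H-shCtrl and 6.56 in N-shCtrl. EPAS1 had 3.93 in H-shZHX2, 3.83 in H-shCtrl and 3.74 in N-shCtrl. Their partner ARNT had 7.52 in H-shZHX2, 7.31 in H-shCtrl and 7.07 in N-shCtrl. The values of these 3 genes lay close together in the lists. VHL, which marks HIF for destruction, had 6.43 in H-shZHX2, 5.98 in H-shCtrl and 4.93 in N-shCtrl, and was lowest in normoxia. ZHX2 itself had 3.39 in H-shZHX2, 3.37 in H-shCtrl and 3.12 in N-shCtrl. A hairpin lowers RNA and not accessibility, so these values do not check the knockdown. Of genes often used as references, GAPDH had 5.26 in H-shZHX2, 4.39 in H-shCtrl and 4.26 in N-shCtrl. TBP, which shares its region with PSMB1, had 5.48 in H-shZHX2, 5.35 in H-shCtrl and 4.75 in N-shCtrl. ACTB had 4.31 in H-shZHX2, 3.36 in H-shCtrl and 2.78 in N-shCtrl, with widths of 1496 bp in H-shZHX2, 2786 bp in H-shCtrl and 3511 bp in N-shCtrl.

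Between hypoxia and normoxia, the ratio of column 7 had a narrower spread at gene ends than in other shared regions, and a higher median. Values were divided by the list's median over the 57097 shared regions, which was 5.05 in H-shZHX2, 4.99 in H-shCtrl and 5.19 in N-shCtrl. Read totals for the lists are not given in the sources used here. The ratio of H-shCtrl to N-shCtrl had a median of 1.06 at gene ends, with 90% of regions between 0.884 and 1.24, against 1.01 and a range of 0.749 to 1.27 elsewhere. It was above 1 in 77.1% of gene-end regions and 53.9% of the others. Without the division the median was 1.02 at gene ends and 0.975 elsewhere, and 60.9% and 42.3% were above 1. Widths moved the other way, with a median ratio of 0.965 at gene ends and 0.937 elsewhere.

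Few gene-end regions passed 1.5-fold. Column 7 was over 1.5-fold higher in H-shCtrl than in N-shCtrl in 44 (0.329%), where 0.434% of all shared regions were, and over 1.5-fold lower in 25 (0.187%), where 1.5% were. Without the division the split was 28 higher and 46 lower, so which direction had more regions depends on the scaling. The same split over all shared regions was not counted. By width, 70 were over 1.5-fold wider in H-shCtrl (0.523%, against 1.23% of all shared regions) and 550 over 1.5-fold narrower (4.11%, against 10.2%).

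Knockdown of ZHX2 in hypoxia was set against the control hairpin in hypoxia, a comparison that uses the same H-shCtrl list. The scaled ratio of H-shZHX2 to H-shCtrl had a median of 1.03 at gene ends and 1.03 elsewhere, with 90% of regions between 0.850 and 1.23 at gene ends and between 0.707 and 1.36 elsewhere. Column 7 was over 1.5-fold higher in H-shZHX2 in 54 gene-end regions (0.404%, against 1.57% of all shared regions) and over 1.5-fold lower in 89 (0.665%, against 2.65%). By a shift of over 20 points in rank, 356 were higher and 333 lower, so which direction had more regions depends on the measure. How many of all shared regions shifted as much in rank was not counted. By width, 188 were over 1.5-fold wider in H-shZHX2 (1.41%, against 2.76%) and 587 over 1.5-fold narrower (4.39%, against 10.2%). The shares past 1.5-fold were thus below those of all shared regions in both comparisons, both directions and both measures. Gene-end regions were also wider and of higher −log10 p, and the part of either in these shares was not tested.

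Among gene classes the H-shCtrl to N-shCtrl ratio was highest for clustered histone genes, with a median of 1.14 and 36 of 38 regions above 1, RNA polymerase II subunits, with 1.13 and 12 of 12, and cytosolic ribosomal proteins, with 1.12 and 94 of 101. Without the division these medians were 1.10, 1.08 and 1.08. Widths of the same regions had median ratios of 0.932, 0.980 and 0.953, so they were slightly narrower in H-shCtrl, and the part of width in the ratio was not tested. HIF targets had a median of 1.05, with 34 of 44 above 1, close to all gene-end regions. In the ZHX2 comparison HIF targets had 1.06, with 36 of 44 above 1, against 1.03 over all gene-end regions, of which 64.1% were above 1. They were not the highest class. Blood markers had 1.11, with 5 of 5 regions above 1, and chemokines 1.10, with 6 of 9. Endothelium and stroma markers had 1.09, with 2 of 4, and clustered protocadherins 1.08, with 25 of 31. With 1 list per group none of these medians has an error.

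**Figure D5:**
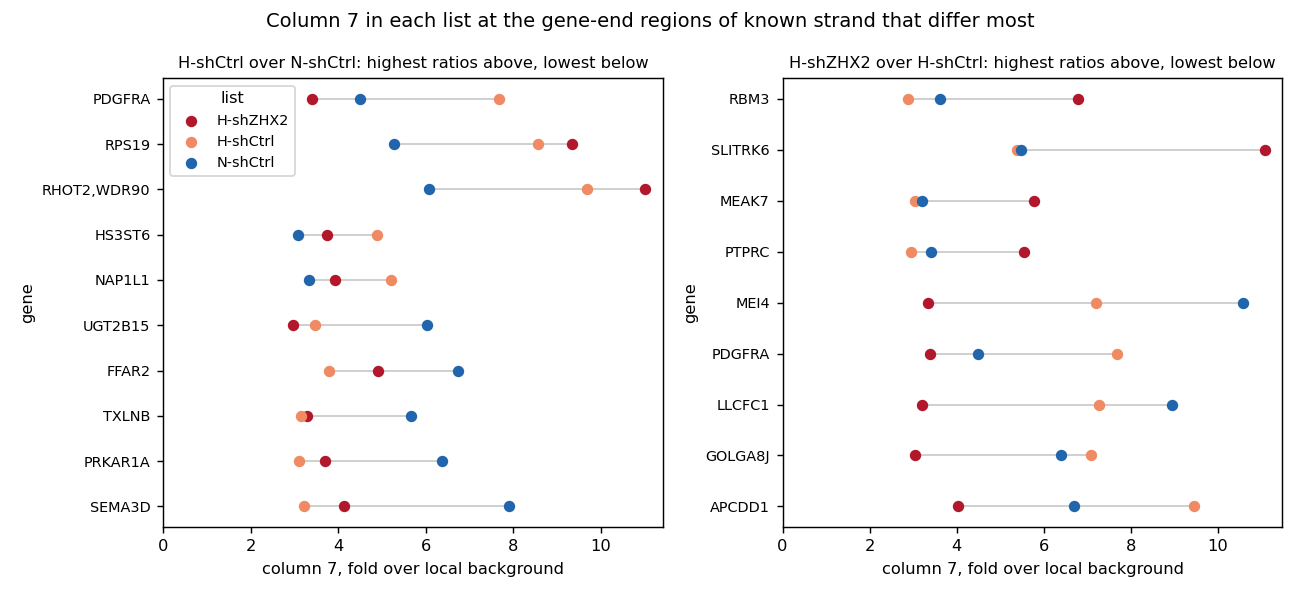
Column 7 (fold over local background) in H-shZHX2, H-shCtrl and N-shCtrl at gene-end regions of known strand and 1 interval in every list, among those with the highest ratios of scaled column 7 (upper) and the lowest (lower), for H-shCtrl over N-shCtrl (left) and H-shZHX2 over H-shCtrl (right). PDGFRA appears in both panels, with 3.40 in H-shZHX2, 7.69 in H-shCtrl and 4.49 in N-shCtrl.

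Among regions with 1 interval in every list, the 10 that differed most between H-shCtrl and N-shCtrl were all narrower in H-shCtrl, in whichever direction column 7 differed. PDGFRA, a growth factor receptor of mesenchymal cells, had at its start a column 7 of 3.40 in H-shZHX2, 7.69 in H-shCtrl and 4.49 in N-shCtrl, over 238 bp in H-shZHX2, 422 bp in H-shCtrl and 545 bp in N-shCtrl. H-shCtrl stood alone there, 1.78-fold higher than N-shCtrl after scaling and with H-shZHX2 at 0.437 of H-shCtrl. A region at the end of RPS19, at chr19:41872643-41873567 and so apart from the promoter printed above, had 9.34 in H-shZHX2, 8.56 in H-shCtrl and 5.27 in N-shCtrl over 514 bp in H-shZHX2, 528 bp in H-shCtrl and 895 bp in N-shCtrl. The shared start of RHOT2, a mitochondrial GTPase, and WDR90 had 11 in H-shZHX2, 9.70 in H-shCtrl and 6.09 in N-shCtrl over 539 bp in H-shZHX2, 823 bp in H-shCtrl and 1556 bp in N-shCtrl. In these last regions both hypoxia lists were high and narrow. HS3ST6, a heparan sulfate sulfotransferase, had 3.75 in H-shZHX2, 4.90 in H-shCtrl and 3.07 in N-shCtrl. NAP1L1, a nucleosome assembly protein, had 3.94 in H-shZHX2, 5.21 in H-shCtrl and 3.32 in N-shCtrl at its end.

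Lower in hypoxia was SEMA3D, a secreted guidance molecule, with 4.13 in H-shZHX2, 3.22 in H-shCtrl and 7.90 in N-shCtrl, where the −log10 p was 24.9 in H-shZHX2, 18.0 in H-shCtrl and 99.9 in N-shCtrl. PRKAR1A, a regulatory subunit of protein kinase A, had 3.71 in H-shZHX2, 3.11 in H-shCtrl and 6.38 in N-shCtrl. TXLNB had 3.29 in H-shZHX2, 3.16 in H-shCtrl and 5.67 in N-shCtrl. FFAR2, a receptor of short-chain fatty acids, had 4.92 in H-shZHX2, 3.80 in H-shCtrl and 6.75 in N-shCtrl. UGT2B15, which inactivates androgens, had 2.98 in H-shZHX2, 3.46 in H-shCtrl and 6.04 in N-shCtrl. In all 5, both hypoxia lists lay below N-shCtrl. The −log10 p in H-shCtrl was low at the others too, with 16.4 at PRKAR1A, 17.1 at TXLNB, 25.7 at FFAR2 and 21.1 at UGT2B15. UGT2B15 has close copies in its gene cluster, so reads may be split there.

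In the ZHX2 comparison the highest ratio among such regions was at the end of RBM3, an RNA-binding protein induced by cold, with 6.79 in H-shZHX2, 2.88 in H-shCtrl and 3.63 in N-shCtrl. SLITRK6, a neuronal membrane protein, had 11.1 in H-shZHX2, 5.38 in H-shCtrl and 5.47 in N-shCtrl at its start. MEAK7, a protein of mTOR signalling, had 5.77 in H-shZHX2, 3.03 in H-shCtrl and 3.19 in N-shCtrl. PTPRC, the leukocyte surface phosphatase CD45, had 5.55 in H-shZHX2, 2.95 in H-shCtrl and 3.41 in N-shCtrl at its end. At each of these 4 the H-shZHX2 interval was the wider of the hypoxia pair and H-shCtrl lay close to N-shCtrl or below it. The −log10 p in H-shCtrl was 13.7 at RBM3, 15.5 at MEAK7 and 14.4 at PTPRC, near the lowest in the lists, 10.0. At SLITRK6 it was 51.7. Lower in H-shZHX2 were APCDD1, GOLGA8J, LLCFC1, MEI4 and PDGFRA, given above. APCDD1, an inhibitor of Wnt signalling, had 4.03 in H-shZHX2, 9.45 in H-shCtrl and 6.69 in N-shCtrl at its end. GOLGA8J had 3.04 in H-shZHX2, 7.09 in H-shCtrl and 6.39 in N-shCtrl at its start. In H-shCtrl these 2 stood above both other lists. LLCFC1 had 3.19 in H-shZHX2, 7.27 in H-shCtrl and 8.93 in N-shCtrl, and the start of MEI4, a protein of meiotic recombination, had 3.34 in H-shZHX2, 7.19 in H-shCtrl and 10.6 in N-shCtrl. The H-shZHX2 interval was narrower than the H-shCtrl one in all 5, at 0.359 to 0.564 of its width. In H-shZHX2 the −log10 p was 12.7 at GOLGA8J, 14.2 at LLCFC1, 15.7 at MEI4 and 16.3 at PDGFRA, also near the lowest, and 23.4 at APCDD1. GOLGA8J belongs to a family of near-identical copies, so its reads may be split. PTPRC is a blood marker and PDGFRA a stromal one, and the share of their marker lists with a region, 5 of 10 and 3 of 8, is given above.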

How the data were processed

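The 3 lists deposited by the authors, 1 per group of 3 samples, have 9 columns and no header. Groups were taken from the names of the lists. Interval names inside them begin with Hsh (H-shZHX2), HGFP (H-shCtrl) and NOGFP (N-shCtrl), strings whose meaning the labels do not give. The submitters' processing notes list FastQC, Bowtie2, SAMtools and MACS2, with no version or parameter, and genome build hg38. The layout is that of MACS2 broad peaks. Every interval in the deposited lists carries the authors' score, fold enrichment (column 7), −log10 p and −log10 q. In over 99% of intervals the score equals the integer part of 10 times the −log10 q, and the lowest −log10 p is 10.0. How 3 samples became 1 list, whether positions were shifted for the transposase, and the read depth are not given in the sources used here.

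Lists were merged at 1 bp shared. Where a list had several intervals in a merged region, their widths were added and the highest column 7 was used. The 3 merged regions of the mitochondrial genome were left out, since column 7 there was 1.14 to 1.5. Gene boundaries came from RefSeq's GRCh38.p14 gene table and promoters from its promoter table. Promoter starts equal the gene boundary in 83.8% of genes. Motif counting was tested on simulated promoters. Intervals on shares are Wilson 95% intervals and cover counting error only. Regions were named by a fixed rule: the 5 widest, the 5 highest and 3 lowest by mean rank of column 7, the 5 largest rises and falls per comparison among regions with 1 interval in every list, examples per gene class, genes with the most regions and 21 fixed genes. Genes with no symbol other than a placeholder were left out, and a few named genes are not reported here. JUNB, KLF10, PKM and IL6ST, and the printed promoters, were picked out after their values were seen. The regions, the gene classes and the rules were chosen with earlier results of these data known. Alternatives changed the window, the threshold, the overlap, list lengths, scaling, ranking and the treatment of split intervals. Python 3.11.15, pandas 2.3.3, NumPy 2.4.6 and matplotlib 3.10.9 were used.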

Additional observations from a re-analysis of the deposited data

How the results depend on the processing

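Of 203 recomputed values, 150 stayed within their counting interval or within 1.5 times the count and 53 moved. With a window of 0.5 kb the regions were 21.8% of those called in all 3 lists, median widths were 1094, 1102 and 1173 bp in H-shZHX2, H-shCtrl and N-shCtrl, median ranks were 65.9, 64.7 and 60.0 in these lists, and defensins and blood markers had 1 and 3 genes. With 2 kb these were 26.6%, 1019, 1030 and 1102 bp, and 62.3, 61.0 and 56.6 in H-shZHX2, H-shCtrl and N-shCtrl, and 1 type I interferon, 16 chemokine and 6 endothelium and stroma genes had a region. At a −log10 q of 20 or more they were 28.6%, 1096, 1107 and 1176 bp, and 57.2, 56.3 and 51.8 in H-shZHX2, H-shCtrl and N-shCtrl, with 1 endothelium and stroma gene. With lists cut to equal length they were 25.7%, 1082, 1090 and 1162 bp, and 61.4, 60.1 and 55.1 in H-shZHX2, H-shCtrl and N-shCtrl. With annotated starts only they were 17.0%, 1121, 1125 and 1197 bp, and 67.7, 66.5 and 62.3 in H-shZHX2, H-shCtrl and N-shCtrl. Ranks by −log10 p were 82.3, 81.1 and 80.7, and among regions of similar width, an alternative chosen after seeing the data, 58.4, 60.8 and 62.0 in H-shZHX2, H-shCtrl and N-shCtrl. Without scaling, 28 regions were over 1.5-fold higher and 46 lower in H-shCtrl than in N-shCtrl. A rank shift of over 20 points was met by 403 higher and 204 lower regions in that comparison, and by 356 higher and 333 lower in H-shZHX2 against H-shCtrl. The counts without scaling and by rank shift cover gene-end regions only and have no share over all shared regions beside them. The cause of these moves was not tested, beyond the different regions that each setting keeps. No paired analysis was possible because each group has 1 list, and for the same reason no sample could be left out. Depth is unknown, so a missing call is no proof of closed chromatin.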
